A study of Aspergillus luchuensis with 6 samples.

Results

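The locus described here is a stretch of 66 consecutively numbered genes, AKAW_05980 to AKAW_06045, out of 11488 locus tags counted in rice koji of *Aspergillus luchuensis*. In its middle, 19 tags from AKAW_06003 to AKAW_06021 form a block that was read in the mutant strain U1 and almost unread in its wild type. Below the block lie 23 flanking tags and above it 24. The stretch was picked by tag number around tags already known to differ between U1 and wild type in these same 6 libraries. The difference between the strains is therefore how the locus was chosen, and it is given as a description. Calls of its tags are counted beside the share called in the whole table, with no p-value printed and nothing supported by them. The libraries came from RNA of whole koji, 3 from U1 and 3 from the wild type. U1 has the strain background RIB2601 and is labelled as a mutant that degrades starch strongly, obtained by ion beam mutagenesis according to the title of the series. The wild type has the same background, RIB2601. U1 is a single mutant strain, and nothing in the labels ties its 3 libraries, or those of the wild type, to separate cultures, so the spread between libraries may be technical.

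*A. luchuensis* is a filamentous fungus used to make koji, in which it grows on steamed rice and secretes enzymes that break the starch down to sugars. In filamentous fungi, genes that work in one pathway often lie side by side on a chromosome and are transcribed together, as is well known for clusters that make secondary metabolites. Strains of one species can also differ in which of such gene blocks they carry. RNA counts show how much transcript was read from a gene, so a gene that is missing from a genome and a gene that is present but not transcribed cannot be told apart in them. The counts carry tags without names, and 0 of the tags occur in the reference table of 12941 genes, so no function, position or length can be given for any member. Neighbouring numbers are taken as neighbours.

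Library totals ran from 4427719 to 8420828 counts in U1 and from 4025119 to 5064126 in wild type. Levels are in CPM, counts per 1000000 of the library size after trimmed-mean scaling, and are not divided by gene length. An order of tags by CPM is thus an order by reads. Whole koji was extracted, so fewer cells of one kind and less RNA per cell cannot be told apart. Over all 8790 tags with enough reads to be tested, 24.5% were called different between U1 and wild type (edgeR quasi-likelihood test, Benjamini-Hochberg adjusted p under 0.05), 11.4% as higher and 13.1% as lower in U1. Levels of all tags had a median of 25.2 CPM in U1 and 25.1 CPM in wild type.

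The block as a whole reached a summed level of 1178 ± 58.6 CPM in U1, against 8.61 ± 1.68 CPM in wild type (SD, n = 3 each). By library the sums were 1117, 1234 and 1184 CPM in U1 and 9.55, 6.67 and 9.60 CPM in wild type. The U1 libraries lay close together and far above every wild-type library, at 137 times the wild-type mean. The block took from 0.112% to 0.129% of all counts in a U1 library. Of its 19 tags, 13 passed the filter on low counts and were tested, and all 13 were called higher in U1, where 11.4% of all tested tags were. In all 13 the U1 libraries also lay above all wild-type libraries, which held for 18.2% of tested tags. Neither share is read as a result, because the block was chosen by this contrast. In addition, every tested block tag other than AKAW_06017 passed the filter through its U1 reads alone. For AKAW_06003 the 9 reads in wild-type replicate 2 fell short of the filter. The 11 tested tags other than AKAW_06003 and AKAW_06017 had 11 wild-type reads in all. The 6 untested tags of the block stayed low in both strains and split the block into a first part of 4 tags and a second part of 9.

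**Figure D1:**
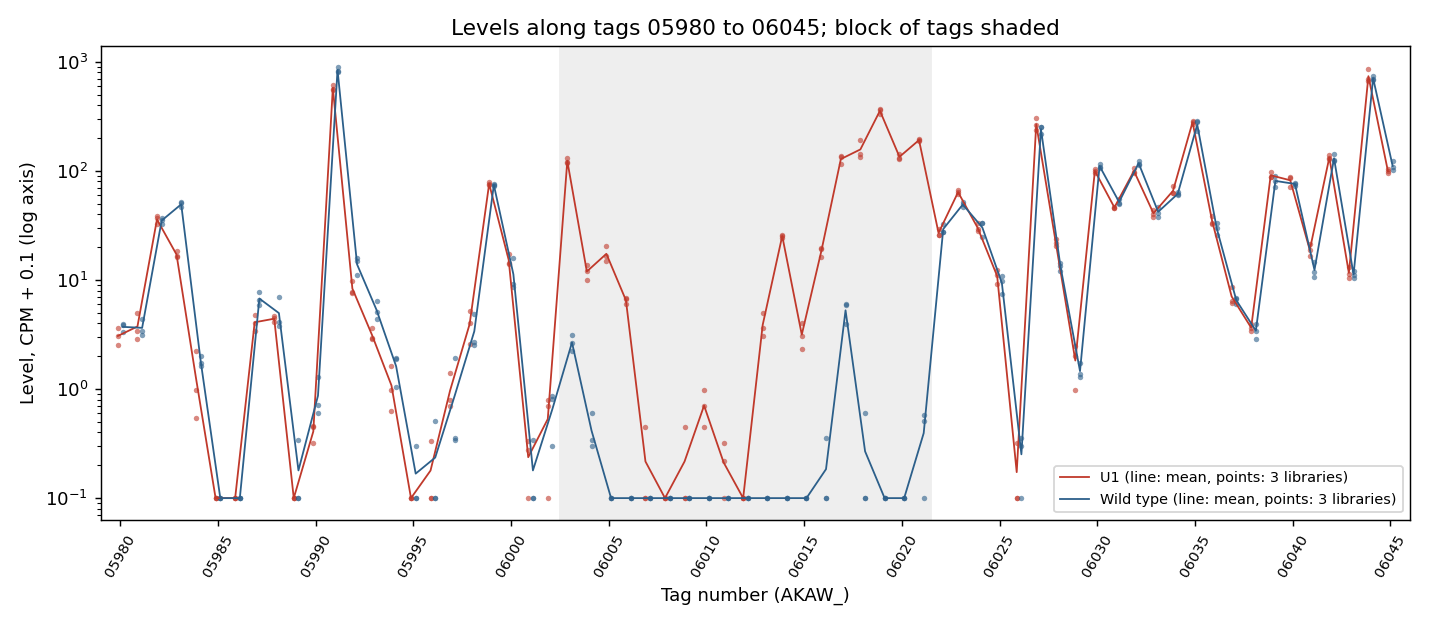
Level of each tag in CPM plus 0.1 on a log axis, along the tags AKAW_05980 to AKAW_06045, with U1 in red and wild type in blue; points are the 3 libraries of each strain, lines join the means, and the shaded band is the block from AKAW_06003 to AKAW_06021. The lines run close together in the upper flank and over much of the lower flank, where U1 is lower at tags such as AKAW_05983, and part widely inside the block, where U1 forms 2 humps around a low stretch from AKAW_06007 to AKAW_06012 and wild type shows small peaks at AKAW_06003 and AKAW_06017.

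The second part, AKAW_06013 to AKAW_06021, held most of the reads. Its summed level was 1018 ± 55 CPM in U1, against 5.72 ± 1.25 CPM in wild type (SD, n = 3 each), and it held 86.4% of the block's U1 reads. The most read tag was AKAW_06019, at 331, 365 and 372 CPM in the U1 libraries and 0 reads in each wild-type library. It ranked 499th of all tags by its U1 level. Set against the level that 3 counts over the summed wild-type libraries amounts to, 0.23 CPM, its U1 level was at least 1551-fold higher. By the exact 95% counting interval, which is stricter than this floor, the lower limit was 1245. Next to it, AKAW_06020 stood at 129, 132 and 143 CPM in U1, again with 0 wild-type reads, and its U1 level was at least 587-fold above that floor (lower limit of the counting interval 472). The last tag of the block, AKAW_06021, was the steadiest of the block tags read in U1, at 191, 197 and 187 CPM in U1, while the wild-type libraries had 2, 2 and 0 reads. With the counts of each strain pooled, its ratio of U1 to wild type was 627, with a 95% counting interval from 245 to 2303.

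The tags just below these were also high in U1, with more difference among libraries or more wild-type reads. AKAW_06018 stood at 144, 193 and 135 CPM in the U1 libraries, so that replicate 2 was well above the other two, and had 0, 0 and 2 reads in the wild-type libraries. Its pooled ratio was 1025, with a counting interval from 284 to 8470. That ratio rests on wild-type replicate 3, without which the tag had no wild-type read and the fitted log2 fold change was 12.78 in place of 9.80, a value that then depends on the prior count. AKAW_06017 had 115, 134 and 136 CPM in U1 and was the tag of the block with the most wild-type reads, 29, 16 and 23 in the 3 libraries. These correspond to 128 ± 11.6 CPM in U1 and 5.17 ± 1.18 CPM in wild type (SD, n = 3 each). Its pooled ratio of 24.2 (counting interval 19.04 to 31.31) was the lowest among the tags that had both U1 and wild-type reads in the block, and the fitted log2 fold change of U1 over wild type was 4.62 ± 0.142 (SE).

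The lower end of the second part, AKAW_06013 to AKAW_06016, was less read in U1 than AKAW_06017 to AKAW_06021. AKAW_06016 reached 19.5, 19.1 and 16.2 CPM in U1 and had 1 wild-type read, in replicate 3, for a pooled ratio of 243 (counting interval 43.3 to 9621). Its fitted log2 fold change of 7.52 likewise became 9.68 without wild-type replicate 3, where no wild-type read was left, and 6.98 without wild-type replicate 1. AKAW_06014 was of like level at 24.4, 25.9 and 25.4 CPM in U1, with 0 wild-type reads, and was at least 110-fold higher by the floor of 3 counts (lower limit of the counting interval 88.6). The tags on either side of AKAW_06014 were far lower. AKAW_06013 had 4.86, 2.97 and 3.50 CPM in U1 and AKAW_06015 had 2.25, 2.97 and 3.94 CPM, both with 0 wild-type reads. By the floor of 3 counts their lower bounds were 16.5-fold and 13.3-fold, AKAW_06015 being the block tag read in U1 that came nearest to the limit of 10-fold used for the edges. By the counting interval the lower limits were 13.7 for AKAW_06013 and 9.87, just under that limit, for AKAW_06015. Levels by read number thus did not fall or rise evenly along the block: a tag at 25.2 CPM stood between neighbours at 3.78 and 3.05 CPM in U1.

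**Figure D2:**
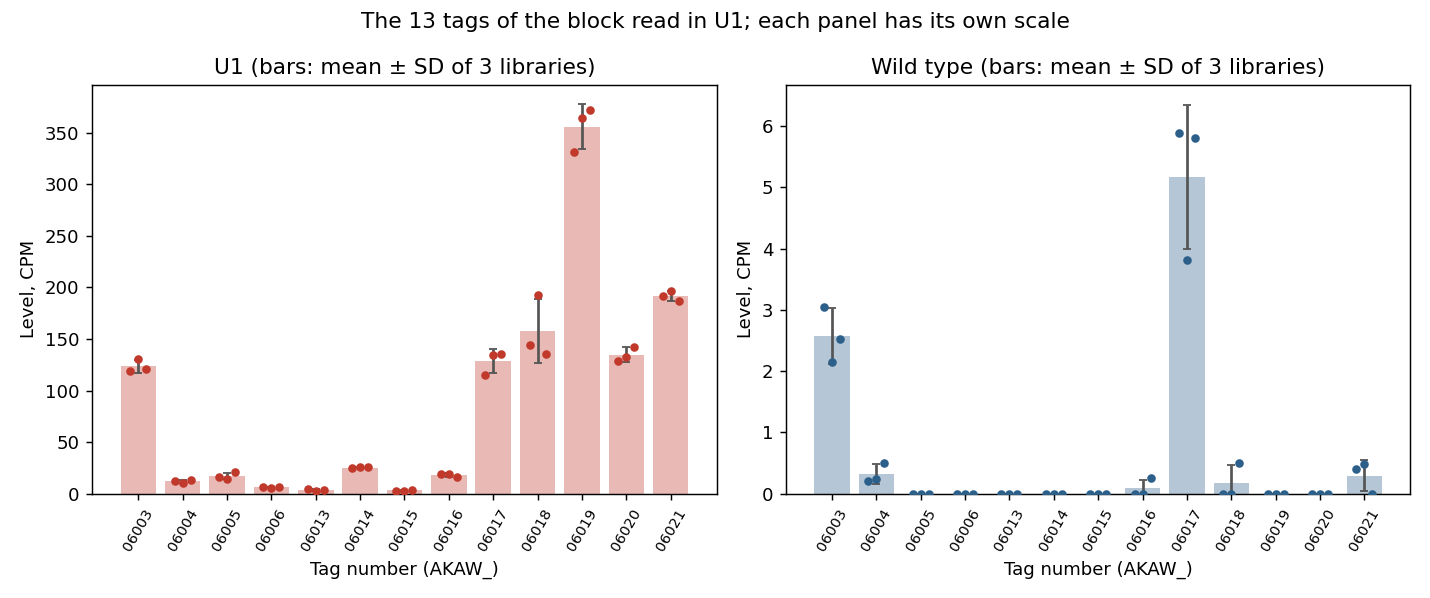
Level in CPM of the 13 block tags read in U1, with U1 in the left panel and wild type in the right panel on its own, much smaller scale; bars are means, error bars SDs and points the 3 libraries. In U1 AKAW_06019 is highest at a mean of 356 CPM, and in wild type only AKAW_06003 and AKAW_06017 stand clearly above 0, at means of 2.57 and 5.17 CPM.

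The first part, AKAW_06003 to AKAW_06006, was read mainly at its outer edge. Its summed level was 159 ± 4.05 CPM in U1, against 2.89 ± 0.452 CPM in wild type (SD, n = 3 each). AKAW_06003 alone stood at 119, 130 and 121 CPM in the U1 libraries, and at 3.05, 2.15 and 2.53 CPM in the wild-type libraries, from 15, 9 and 10 reads. All 3 U1 libraries were close to each other and far above the wild type, at a pooled ratio of 47.3 (counting interval 33.7 to 68.4) and a fitted log2 fold change of 5.56 ± 0.141 (SE). The next tag was far lower in U1. AKAW_06004 had 12.1, 9.97 and 13.6 CPM in U1, and 1, 1 and 2 reads in wild type, a pooled ratio of 38.6 (counting interval 14.9 to 142.8). AKAW_06005 followed at 16.6, 14.7 and 20.6 CPM in U1 and AKAW_06006 at 6.75, 5.95 and 6.57 CPM, both without a wild-type read. By the floor of 3 counts their lower bounds were 75.31-fold and 27.98-fold, and the lower limits of the counting interval were 59.8 and 22.6.

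Inside the block, the 6 tags AKAW_06007 to AKAW_06012 stayed low in U1 as well. Together they received 17 reads in the U1 libraries and 0 in wild type, and none passed the filter for testing. AKAW_06008 and AKAW_06012 had no read in any library, AKAW_06007 and AKAW_06009 had 2 reads each, all in U1 replicate 2, and AKAW_06011 had 2 reads in U1. Those 5 tags averaged at most 0.117 CPM in U1, under the 0.16 CPM that 3 counts over the summed U1 libraries would give. Whether they were read more in U1 than in wild type was not detectable at this depth. AKAW_06010 was the exception, with 5, 2 and 4 reads in the U1 libraries, a mean of 0.606 CPM, which is 2.64 times the wild-type floor of 3 counts, and the lower limit of its counting interval was 1.75.

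The wild-type reads in the block were few and were spread over its tags in other proportions than the U1 reads. Wild type had 113 reads in the block over its 3 libraries, 47, 28 and 38, against 21896 in U1. Of the wild-type reads, 102 fell on AKAW_06003 and AKAW_06017, which is 90.3% of the wild-type block reads. These 2 tags were picked as the most read in wild type, so a high share there was fixed by the choice. The same 2 tags took 21.3% of the block reads in U1. The 3 tags most read in U1, AKAW_06018, AKAW_06019 and AKAW_06021, took 59.9% of the block reads in U1 and 5.31% in wild type, 6 reads in all. By wild-type library, the pair AKAW_06003 and AKAW_06017 had 44, 25 and 33 reads, and the 3 tags had 2 in each. Both sets were picked from these same counts, so their shares are a description and test nothing. Without that pair, the block summed to 926.5 ± 43.1 CPM in U1, against 0.863 ± 0.351 CPM in wild type (SD, n = 3 each), 11 wild-type reads in all. From AKAW_06005 to AKAW_06015, 11 tags in a row had no wild-type read.

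Within U1, the most read block tags took like shares of the block in each library. AKAW_06019 took 29.7%, 29.6% and 31.4% of the block reads in U1 replicates 1 to 3, and AKAW_06003 took 10.6%, 10.6% and 10.2%. AKAW_06018 varied most among the tags above 100 CPM, at 12.9%, 15.6% and 11.4%. The 5 most read tags together held from 81.5% to 82.7% of the block reads. The coefficient of variation over the U1 libraries had a median of 9.0% over the 13 tags read in U1, with a range from 2.62% at AKAW_06021 to 27.8% at AKAW_06015. It was 8.5% over the 7835 other tags within the same range of U1 levels, from 3.05 to 356 CPM.

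The edges of the block were placed by the first and last tag with at least 1 CPM in U1 and at least 10 times the wild-type level. At the upper edge the change came between one tag and the next. AKAW_06021, inside, averaged 191.6 CPM in U1 and 0.294 CPM in wild type, and AKAW_06022, outside, averaged 26.9 CPM in U1 and 29.2 CPM in wild type. AKAW_06022 had 25.8, 29.0 and 25.8 CPM in the U1 libraries and 27.6, 27.4 and 32.6 CPM in the wild-type libraries, which overlapped. At the lower edge AKAW_06003, at 123 CPM in U1 and 2.57 CPM in wild type, adjoined tags hardly read in either strain. AKAW_06002 had 5, 4 and 0 reads in U1 and 1, 3 and 3 reads in wild type, a pooled ratio of 0.897 with a counting interval from 0.297 to 2.83, well under 10. AKAW_06001 had 3 reads in U1 and 1 in wild type, and its interval, from 0.168 to 110, is too wide to place it on either side. The first tag below that with enough reads to be tested, AKAW_06000, had 13.98, 14.34 and 17.29 CPM in U1 and 15.85, 8.58 and 9.10 CPM in wild type. The strains overlapped there, and the log2 fold change of 0.40 ± 0.207 (SE) was not called, although it was 0.77 and called without wild-type replicate 1. A limit of 4-fold in place of 10-fold gave the same edges.

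**Figure D3:**
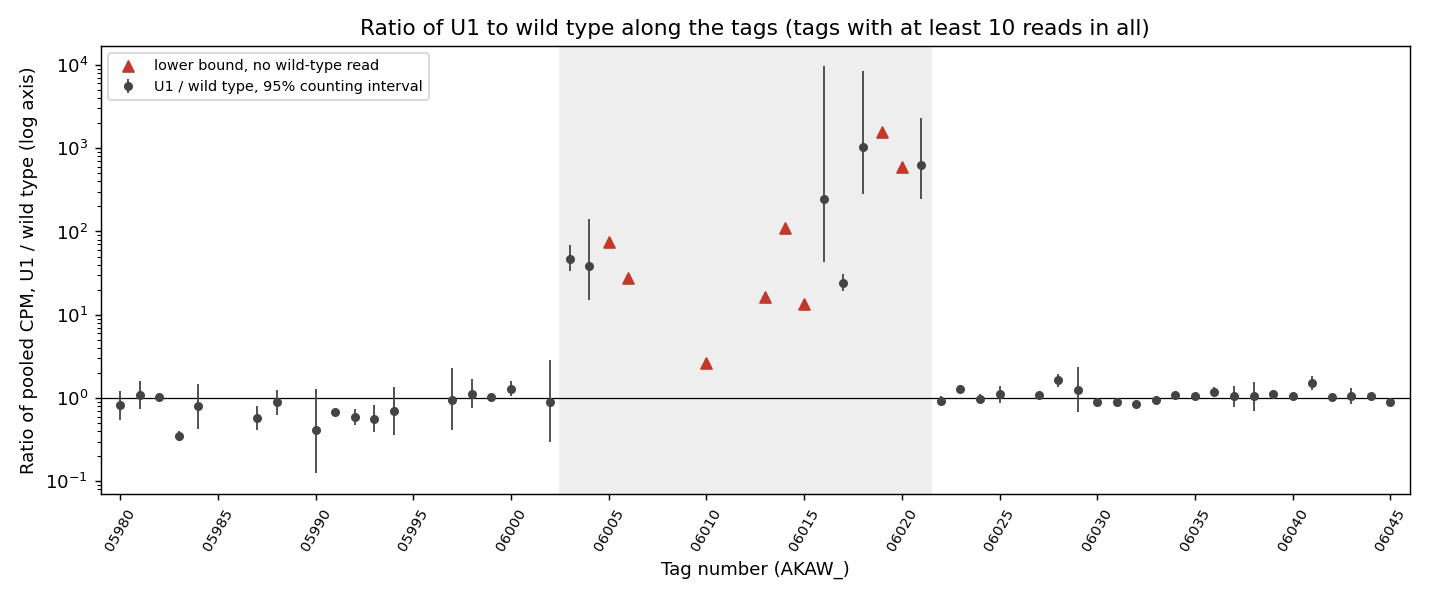
Ratio of U1 to wild type along the tag numbers on a log axis, for tags with at least 10 reads in all; grey points are ratios of pooled CPM with 95% counting intervals, red triangles are lower bounds, by the floor of 3 counts, for tags without a wild-type read, the black line is a ratio of 1 and the shaded band is the block. Upper-flank tags lie near 1. In the lower flank the 5 called tags lie below 1, from 0.351 at AKAW_05983, the lowest of the tested ones, to 0.688 at AKAW_05991. The block tags read in U1 lie above 10, with AKAW_06010 at 2.64.

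The lower flank, AKAW_05980 to AKAW_06002, was mostly weakly read. In 9 of its 23 tags, 39.1%, the mean was under 1 CPM in both strains, which was so for 17.8% of all tags. The median tag had 2.97 CPM in U1 and 3.29 CPM in wild type, and AKAW_05985 and AKAW_05986 had no read in any library. A single tag, AKAW_05991, made up 76.4% of the summed level in U1 and 79.6% in wild type. The sums were 756 ± 33 CPM in U1 and 1061 ± 41.5 CPM in wild type (SD, n = 3 each), a ratio of 0.713, and 178 ± 3 CPM and 216 ± 3.45 CPM in the same order without AKAW_05991, a ratio of 0.823. In both sums the libraries of the strains did not overlap.

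Of the 12 lower-flank tags tested, 5 were called lower in U1 and the other 7 were not called, against 13.1% of all tested tags called lower. AKAW_05991 had 612, 553 and 569 CPM in U1 and 888, 829 and 816 CPM in wild type, all U1 libraries being lower, with a log2 fold change of -0.55 ± 0.0772 (SE). AKAW_05983 showed the largest log2 fold change in size among the tested flank tags, at 18.2, 16.6 and 16.2 CPM in U1 and 46.1, 50.3 and 51.6 CPM in wild type. The mean in U1 was 0.345 times that in wild type, with a log2 fold change of -1.52 ± 0.111 (SE). AKAW_05992 had 7.58, 7.52 and 9.63 CPM in U1 and 10.98, 14.78 and 15.67 CPM in wild type, with a log2 fold change of -0.75 ± 0.189 (SE). The remaining called tags were less read, with fold changes of like size to that of AKAW_05992 but wider SEs. AKAW_05987 averaged 3.99 CPM in U1 and 6.66 CPM in wild type, a log2 fold change of -0.77 ± 0.24 (SE). AKAW_05993 averaged 3.05 CPM in U1 and 5.20 CPM in wild type, a log2 fold change of -0.80 ± 0.263 (SE). Their calls were lost with DESeq2's Wald test, which left 3 calls in the flank, and likewise 3 remained without U1 replicate 1 or without wild-type replicate 2. Both were also lost without wild-type replicate 1, where AKAW_06000 was called as higher instead. Without U1 replicate 2, AKAW_05993 alone lost its call, and 4 calls were left in the lower flank.

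The other well read tags of the lower flank were alike in the strains. AKAW_05999, 4 numbers below the block, had 78.4, 75.7 and 74.0 CPM in U1 and 76.4, 73.9 and 72.5 CPM in wild type, a log2 fold change of 0.04 ± 0.0791 (SE). AKAW_05982 averaged 35.8 ± 2.86 CPM in U1 and 34.98 ± 1.92 CPM in wild type (SD, n = 3 each). In both tags the libraries of the strains overlapped.

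The upper flank, AKAW_06022 to AKAW_06045, was well read in both strains and closer to even. Its median tag had 43.5 CPM in U1 and 45.6 CPM in wild type, above the medians of all tags. The summed level was 2275 ± 82.5 CPM in U1 and 2194 ± 106 CPM in wild type (SD, n = 3 each), a ratio of 1.04, and the library sums, 2349, 2290 and 2186 CPM in U1 and 2075, 2277 and 2231 CPM in wild type, overlapped. The log2 fold changes of the 22 tested tags ran from -0.24 to 0.72 with a median of 0.07, where the median of all tested tags was 0.005. The most read tag, AKAW_06044, had 856, 693 and 668 CPM in U1 and 677, 749 and 702 CPM in wild type, with U1 replicate 1 above all others and the rest mixed. AKAW_06035, at 280 ± 9.13 CPM in U1 and 266 ± 28.5 CPM in wild type, and AKAW_06027, at 268 ± 34.8 CPM in U1 and 242 ± 19.2 CPM in wild type (SD, n = 3 each), also overlapped between the strains. Only AKAW_06027 among these 3 was called when a library was left out, without U1 replicate 1, at a log2 fold change of 0.25.

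In the upper flank 3 of the 22 tested tags were called higher and 1 lower in U1, against 11.4% and 13.1% of all tested tags. AKAW_06023, 2 numbers above the block, had 60.8, 66.8 and 63.7 CPM in U1 and 46.5, 51.3 and 49.5 CPM in wild type, with a log2 fold change of 0.38 ± 0.0889 (SE). Its neighbours AKAW_06022 and AKAW_06024 were not called, and AKAW_06024 had 29.0, 32.9 and 28.2 CPM in U1 and 32.9, 32.9 and 24.8 CPM in wild type. AKAW_06028 had 20.3, 21.7 and 23.9 CPM in U1 and 11.99, 14.30 and 13.39 CPM in wild type, the largest rise among the tested flank tags, with a log2 fold change of 0.72 ± 0.143 (SE). AKAW_06041 had 16.4, 18.7 and 21.2 CPM in U1 and 10.6, 14.5 and 11.6 CPM in wild type, a log2 fold change of 0.60 ± 0.166 (SE). In these 3 tags every U1 library was above every wild-type library. The reverse held in 3 others, AKAW_06030, AKAW_06031 and AKAW_06032, of which only the last was called. Such separation was found in 18.2% of all tested tags upward and in 19.5% downward. AKAW_06032 was lower, at 96.9, 106.5 and 95.9 CPM in U1 and 114, 123 and 116 CPM in wild type, a log2 fold change of -0.24 ± 0.0766 (SE), but its call was lost in 7 of 11 alternatives, library totals alone among them. Without wild-type replicate 1, AKAW_06041 was no longer called either, and 2 calls were left in the upper flank.

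**Figure D4:**
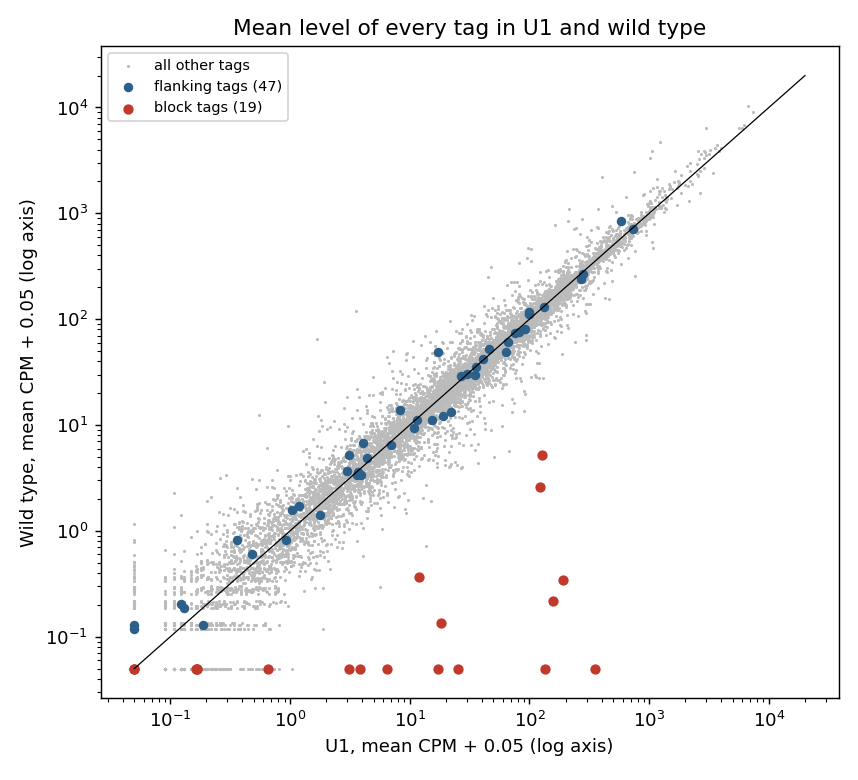
Mean level of every tag in U1 (horizontal) and wild type (vertical), in CPM plus 0.05 on log axes, with the 19 block tags in red, the 47 flanking tags in blue, all others in grey and the diagonal of equal levels in black. The block tags read in U1 lie apart at the lower right, from 3.05 to 356 CPM in U1. Most flanking tags lie along the diagonal, and some of the lower flank, such as AKAW_05983, lie above it.

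Set beside the rest of the table, the size of the difference in the block was rare and its grouping was not met elsewhere by the same rule. The 2 limits used for the edges, 1 CPM in U1 and 10 times the wild-type level, were both met by 17 of 11488 tags, 0.148%, of which 13 were in the block, 0 in the flanks and 4 elsewhere. None of those 4 had a number next to another of them. They had 5.63 to 66.9 CPM in U1 and 0.248 to 5.67 CPM in wild type, so each had some wild-type reads. The reverse, at least 1 CPM in wild type and 10 times the U1 level, was found for 11 tags, 0 of them in the locus. The rule for the block was made on these tags, so the counts describe the table and test nothing.

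The stretch of 11 block tags without a wild-type read was also compared with other such stretches. Wild type had 28 stretches of 5 or more tags in a row without a read, and 10 of the other 27 were at least as long as the one in the block, up to 31 tags. The block stretch, AKAW_06005 to AKAW_06015, received 1054 reads in U1, with 5 of its tags at 1 CPM or more. The other 27 received from 0 to 5 reads in U1 and held no tag at 1 CPM, and 19 of them had no U1 read at all. Long stretches unread in wild type were thus, apart from this one, unread or nearly unread in U1 too.

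**Figure D5:**
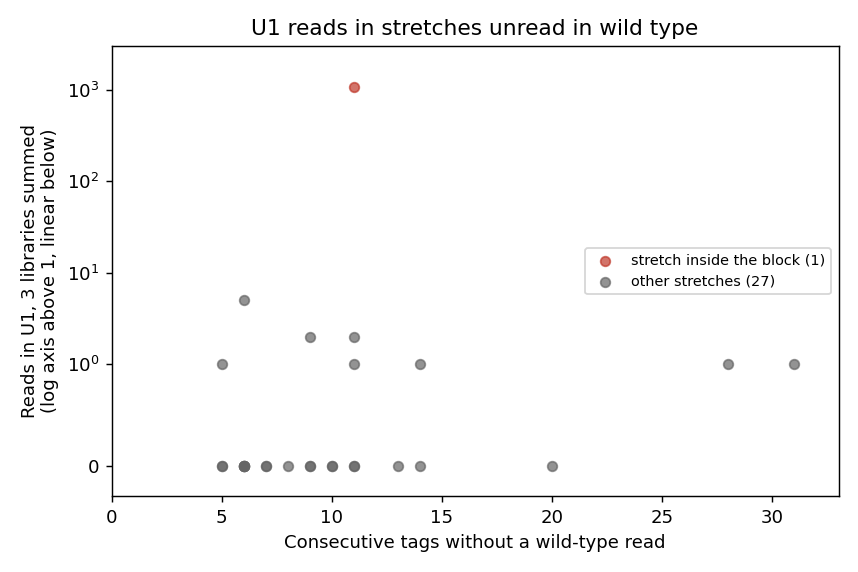
Reads in U1, summed over 3 libraries, against the length in tags of each of the 28 stretches without a wild-type read; the vertical axis is a log axis above 1 and linear below. The stretch inside the block, in red, has 1054 reads, and the 27 others, in grey, have 0 to 5.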

How the data were processed

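RNA of rice koji from U1 and from wild type, 3 libraries each, was sequenced, per the labels. The authors deposited raw counts per locus tag, 1 table per library, with no normalization. Trimmomatic 0.32 and BWA 0.7.12 are named in the submitters' processing notes. For the counting program, genome build, annotation and strand setting the sources used here say nothing. Reads that overlapping or near-identical genes share therefore cannot be assigned to one of them.

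The analysis used edgeR 4.0.16 in R 4.3.3. Tags kept by filterByExpr (8790 of 11488) were fitted on strain alone with trimmed-mean factors (0.970 to 1.043) and a robust quasi-likelihood test, two-sided, Benjamini-Hochberg adjusted over all tested tags, called under 0.05. SEs were derived as the absolute log2 fold change divided by the root of the F statistic. Lower bounds use 3 counts over the summed wild-type libraries (0.23 CPM). Floors and counting intervals (exact binomial, 95%) cover counting error only. Over tags with 10 or more reads, the chi-square per degree of freedom was 3.76 to 7.46 between U1 and 2.15 to 3.25 between wild-type libraries, each above the value near 1 that sampling noise alone gives, so no pair was counted as 1 library. The code was tested on simulated data. The members, edges and tags to be named were chosen with earlier results of these data known: block tags read in U1, 3 tags outside each edge, the 3 most read tags of each flank, and called flank tags. AKAW_05985, AKAW_05986 and the low block tags were named after their values were seen. Alternatives were DESeq2 1.42.0 size factors and Wald test, library totals, no filter, a replicate block, other edge rules, and leaving out each library.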

Additional observations from a re-analysis of the deposited data

How the results depend on the processing

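The block began at AKAW_06003 and ended at AKAW_06021 under a limit of 4-fold and without any 1 library. It had the same ends as a run of called tags, but that run spans the 6 untested tags AKAW_06007 to AKAW_06012. Its summed level ran from 1150 to 1210 CPM in U1 and from 8.14 to 9.63 CPM in wild type over the other scalings and left-out libraries. The ratio of U1 to wild type ran from 0.7 to 0.749 in the lower flank and from 1.01 to 1.09 in the upper. The locus had 22 called tags and from 19 to 23 in the alternatives, of which 18 (without wild-type replicate 1) to 22 were among the original 22. The block gave 13 calls, 12 without U1 replicate 2, where AKAW_06015 was not tested, and 14 with no filter, which adds AKAW_06010. Over all tags 2153 were called, 1710 with DESeq2's Wald test and 1625 to 2069 with a library left out. With library totals alone 2284 were called and 60.6% of them rose, the median log2 fold change of all tags being 0.077; all 13 block tags were still called, and AKAW_06024, not called, stood at 0.06. Leaving out libraries also turned the sign of fold changes near 0 in uncalled flank tags: AKAW_06024 ran from -0.13 to 0.06, AKAW_06035 from -0.01 to 0.13, AKAW_06044 from -0.05 to 0.13 and AKAW_05982 from 0.00 to 0.09. With the replicate block 2091 tags were called, 22 in the locus, and no call in the locus changed. Same-numbered libraries did not deviate together (r of -0.035, -0.008 and -0.076), so the numbers were not taken to pair them. Tags with too few reads for the filter could not be tested at this depth.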
